A study of Mus musculus with 104 samples.

Results

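The lungs compared were those of mice exposed to phosgene and taken at 72 h against those of mice exposed to air and taken at 72 h. They were taken by the sample descriptions, as the lungs labelled CG, 32 mg and 72 and the lungs labelled Air, 1 and 72. Each side held 3 numbered lungs, with 2 chips for each lung, so that 6 of the 52 lungs and 12 of the 104 chips of the series entered. Total RNA of whole lung was hybridized to oligonucleotide microarrays. Lungs taken at other times after phosgene or air and 3 untreated lungs served only to set these values in context. The labels give the phosgene amount as 32 mg and the time as 72 with no unit of time or volume, and that the time is in hours comes from what is known of the study. By these labels phosgene and air lungs shared the time and differed in the gas. Their hybridization days also differed in part, as described below. Strain, sex and age of the mice, and whether a numbered lung is 1 animal, are not given in the labels, so each p-value describes the spread between numbered lungs.

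Phosgene is an industrial gas that reaches the small airways and alveoli, where it reacts with thiol and amino groups of glutathione, proteins and lipids. The alveolar wall becomes leaky after a delay of hours. In lungs that survive such an injury, epithelial cells divide and cover the damaged surface, and macrophages clear dead cells and protein from the air spaces.

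All 6 lungs carried high signal for the defining lung genes. The surfactant protein gene Sftpc gave an intensity of 6282, 5469 and 6197 in phosgene lungs and 5272, 9140.0 and 5657 in air lungs. The airway secretory gene Scgb1a1 gave 6483, 5541 and 5974 in phosgene lungs and 5106, 9288 and 5746 in air lungs. Air replicate 2 was the highest lung for both genes and the groups overlapped. The alveolar type 1 marker Ager gave 2645, 2114 and 2049 in phosgene lungs and 2311, 2409 and 2615 in air lungs, and Sftpc, Scgb1a1, Ager and Sftpb were not called, with log2 changes of -0.12, -0.11, -0.11 and 0.21. The median intensity of a chip lay between 69.2 and 82.2. RNA quality controls overlapped between the groups: the ratio of 3' to 5' signal of Actb was 1.12, 1.11 and 1.23 in phosgene lungs and 1.12, 1.27 and 1.04 in air lungs, and that of Gapdh was 0.77, 0.78 and 1.59 in phosgene lungs and 0.81, 1.52 and 0.86 in air lungs.

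Of 12393 genes tested with limma, 501 were called at an adjusted p under 0.05, which is 4.04% of the genes. Of these 267 were higher in phosgene lungs (2.15% of all genes) and 234 were lower (1.89%). These 2 shares are the background for the counts of list members against air at 72 h given below. With untreated lungs as the control, 197 of the 12393 genes were higher in phosgene lungs of 72 h and 283 were lower. Those counts are the background for list members counted against untreated lungs. The 3 phosgene lungs lay entirely beyond the 3 air lungs for 486 of the 501 genes, and for 2357 of all genes (19.0%). A fold of 2 or more was reached by 59 genes that rose and 12 genes that fell. The median log2 change over all genes was 0.008. Log2 changes and folds are those of the intensity plus 16, an offset that damps dim genes, and so understate the change of genes whose intensity is low.

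The count of calls rested on few lungs. The number of genes called was 233 without phosgene replicate 2, 247 without phosgene replicate 3 and 227 without air replicate 3, and 124 of the 501 calls (80 higher, 44 lower) held whichever of the 6 lungs was left out. The sign was the same in every one of these fits for all 501 genes. For the 486 genes whose lungs did not overlap between the groups, this was fixed in advance. Of the air lungs, replicate 1 was hybridized on days and chip lots shared with phosgene replicate 3, replicate 3 was hybridized on days of its own, and the day of replicate 2 is not known. With hybridization day as a term 258 genes were called, and with chip lot 230. The day term drops air replicate 2 and takes up air replicate 3, and the lot term drops both, so in each of these fits air replicate 1 is the only air lung of 72 h that counts. Without a batch term, air replicate 1 alone gave 46 genes (37 higher, 9 lower). A limma fit of the 6 lungs by themselves, with the spread taken from these lungs, called 65 genes (53 higher, 12 lower). In the pair of lungs that shared 2 days, 499 of the 501 genes had the same sign as in the whole comparison. Both lungs are part of that comparison, and for 486 of the 501 genes no phosgene lung overlapped an air lung. For these 486 genes the sign in the pair was fixed in advance, so the pair is no check of the calls. For air replicates 2 and 3, day and group cannot be told apart.

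Genes that epithelial cells switch on after injury were higher. Of 20 such genes 11 rose and 0 fell, with a median log2 change of 0.74 against 0.008 over all genes, and 6 of the 11 calls held whichever lung was left out. The count was 6 without phosgene replicate 3, 7 without air replicate 3, and 6 both with hybridization day as a term and in the fit of the 6 lungs by themselves. Clu, which encodes clusterin, an extracellular chaperone, gave 1841, 2549 and 2702 in phosgene lungs and 446, 468 and 379 in air lungs. Each phosgene lung was far above every air lung, and the intensity was 5.27-fold higher (adjusted p = 5.91e-08, with a log2 change of 2.40 ± 0.25 SE). The keratin genes Krt18 and Krt8, whose products pair into the filaments of simple epithelia, rose together. Krt18 gave 827, 966 and 892 in phosgene lungs and 351, 483 and 369.7 in air lungs, and was 2.20-fold higher (adjusted p = 6.05e-05). Krt8 gave 978, 941 and 1278 in phosgene lungs and 475, 568 and 533 in air lungs, and was 1.98-fold higher (adjusted p = 0.000114). Neither keratin gene overlapped between the groups. Smaller rises were seen for the tight junction gene Cldn4 (log2 change 0.95 ± 0.17 SE), the calcium-binding S100a6 (0.88 ± 0.14), the EGF receptor ligand Ereg (0.97 ± 0.23), the cell cycle inhibitor Sfn (0.86 ± 0.25) and Krt19 (0.65 ± 0.16). Ereg and Sfn were dim, with at most 60.5 and 47.8 units in any of the 6 lungs. Krt5 and Krt14, keratins of basal cells, were not called, with log2 changes of -0.50 and -0.06.

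**Figure D1:**
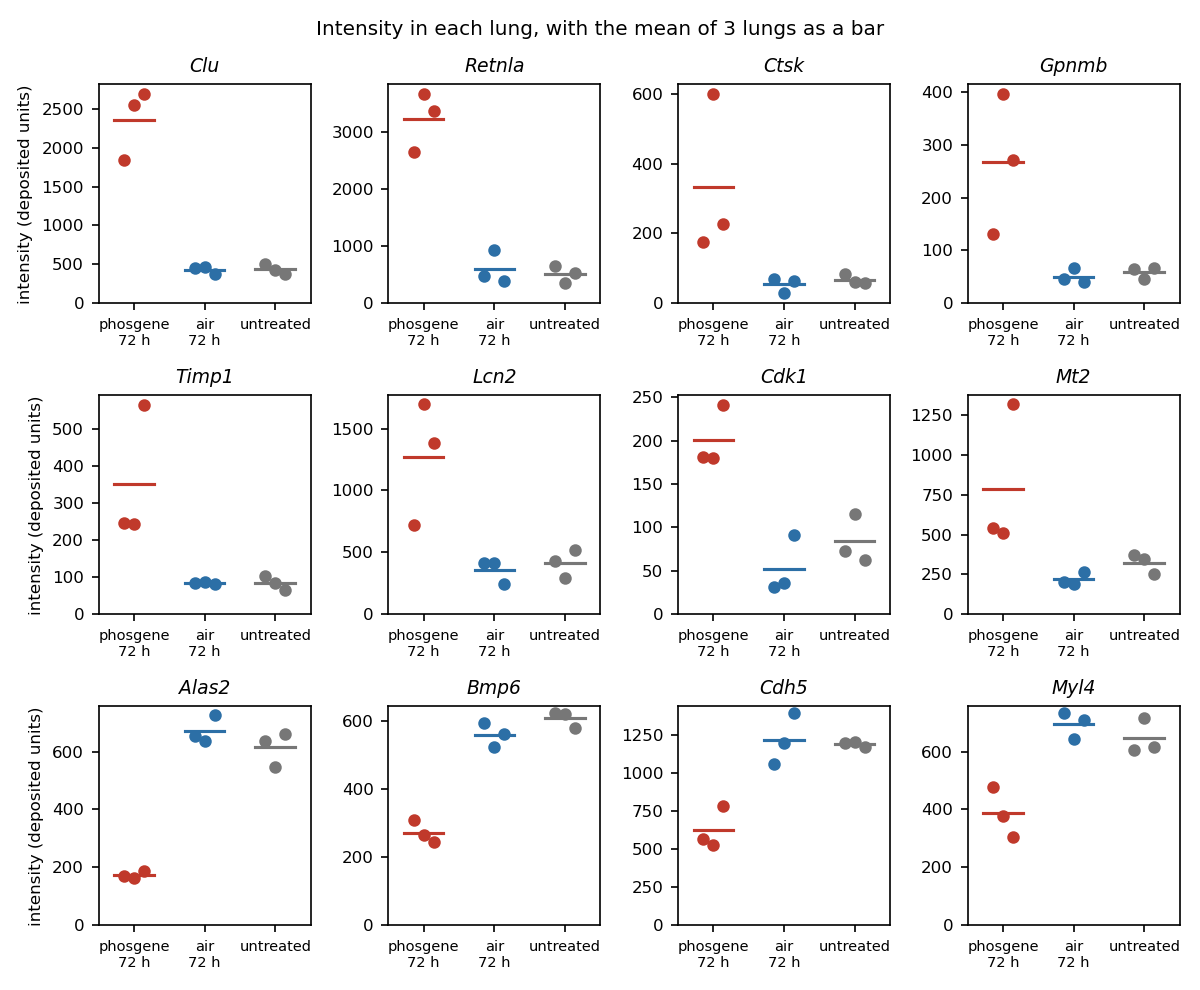
Deposited intensity (linear axis from 0) of 12 genes in each lung, with phosgene lungs of 72 h on the left, air lungs of 72 h in the middle and untreated lungs on the right; points are lungs and bars the means of 3 lungs. The 3 phosgene lungs lie apart from the 3 air lungs in all 12 panels, above them for Clu to Mt2 and below them for Alas2 to Myl4.

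Among markers of alveolar type 2 cells, which make surfactant and can divide to replace lost epithelium, 3 of 22 rose and 0 fell, and the list's median log2 change was 0.23. Egfl6, a secreted EGF-like protein, gave 259, 382 and 306 in phosgene lungs and 177, 138 and 143 in air lungs (1.96-fold higher, adjusted p = 0.00065). The mucin gene Muc1 gave 1199.8, 1322 and 1418 in phosgene lungs and 777, 861 and 793 in air lungs (1.61-fold, adjusted p = 0.00105). The protease gene Ctsh, whose product trims surfactant protein, gave 1465, 1493 and 1953 in phosgene lungs and 935, 1173 and 945 in air lungs (1.59-fold, adjusted p = 0.00226). None of these 3 overlapped between the groups, and the 3 calls held whichever lung was left out, though the fit of the 6 lungs by themselves called 1 gene of this list. Of 16 markers of alveolar type 1 cells, the flat cells of gas exchange, 1 rose (Krt7, log2 change 0.51 ± 0.15 SE) and 2 fell (Limch1, -0.48 ± 0.11, and the caveolin gene Cav1, -0.37 ± 0.11). None of these 3 calls held in every leave-one-out fit. Of 19 club cell genes 1 rose (Retnla, described with the macrophage genes) and 2 fell, the oxidases Fmo1 (-0.82 ± 0.14, adjusted p = 0.000278) and Cyp4b1 (-0.43 ± 0.11). 

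The list with the most calls was that of cell division. Of 45 genes of mitosis 21 rose and 0 fell, with a median log2 change of 0.67, and of 39 genes of DNA replication 11 rose and 0 fell, with a median of 0.43. The summed intensity of the mitosis genes was 6068 to 6861 in phosgene lungs and 3231 to 4648 in air lungs, with 3653 to 4677 in untreated lungs. The kinase gene Cdk1, whose product drives entry into mitosis, gave 181, 180.3 and 242 in phosgene lungs and 30.6, 36.2 and 90.7 in air lungs. Air replicate 3 was the highest air lung but lay below all phosgene lungs, and Cdk1 was 3.37-fold higher (adjusted p = 0.00437, with a log2 change of 1.75 ± 0.38 SE). Birc5, encoding survivin of the chromosomal passenger complex, gave 184, 179 and 218 in phosgene lungs and 34.2, 77.5 and 67.1 in air lungs (2.86-fold, adjusted p = 0.00611), and its call was lost without air replicate 1, the lowest lung. Ect2, an exchange factor needed to split the daughter cells, gave 120.4, 133 and 112 in phosgene lungs and 20.4, 38.1 and 41.0 in air lungs (2.85-fold, adjusted p = 0.00046). Kif22, a chromosome-binding kinesin, gave 184, 205 and 254 in phosgene lungs and 50.4, 76.2 and 77.5 in air lungs (2.75-fold, adjusted p = 0.0027). The air lungs were dim for all 4 genes and replicate 1 was the lowest of them each time. The proliferation marker Mki67 gave 163, 182 and 198 in phosgene lungs and 35.2, 101 and 65.5 in air lungs (log2 change 1.32 ± 0.31 SE), and Cdc20, an activator of the anaphase-promoting complex, gave 271, 295 and 309 in phosgene lungs and 87.5, 142 and 112 in air lungs (1.26 ± 0.24).

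The promoters of these 6 genes, those of largest rise in the mitosis list with a sequence at hand, are printed to show where 2 elements known from cell cycle promoters do and do not stand. Each is the 120 bases before the annotated start in RefSeq (GRCm38.p6), 5′ to 3′ on the gene's strand, with capitals for the CHR element (TTTGAA, or TTCAAA on the other strand) and the CCAAT box (CCAAT, or ATTGG on the other strand). The CHR element is bound by the MuvB complexes that hold cell cycle genes silent in resting cells, and the CCAAT box by NF-Y. The stretches are chr10:69352913-69353032 (minus strand) for Cdk1, chr11:117849117-117849236 (plus strand) for Birc5, chr3:27153879-27153998 (minus strand) for Ect2, chr7:127042421-127042540 (minus strand) for Kif22, chr7:135716380-135716499 (minus strand) for Mki67 and chr4:118437344-118437463 (minus strand) for Cdc20.
Cdk1: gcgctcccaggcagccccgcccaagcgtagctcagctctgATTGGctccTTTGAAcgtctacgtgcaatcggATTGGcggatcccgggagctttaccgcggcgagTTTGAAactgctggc
Birc5: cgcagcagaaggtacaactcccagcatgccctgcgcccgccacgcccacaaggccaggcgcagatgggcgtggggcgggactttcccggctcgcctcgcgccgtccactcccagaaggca
Ect2: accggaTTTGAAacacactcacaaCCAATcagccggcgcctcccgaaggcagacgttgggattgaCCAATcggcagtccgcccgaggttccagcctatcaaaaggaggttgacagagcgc
Kif22: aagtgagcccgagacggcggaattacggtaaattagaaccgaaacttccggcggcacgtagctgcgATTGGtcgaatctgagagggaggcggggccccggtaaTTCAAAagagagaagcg
Mki67: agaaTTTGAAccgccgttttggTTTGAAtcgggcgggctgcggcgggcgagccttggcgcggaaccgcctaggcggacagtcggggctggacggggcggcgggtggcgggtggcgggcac
Cdc20: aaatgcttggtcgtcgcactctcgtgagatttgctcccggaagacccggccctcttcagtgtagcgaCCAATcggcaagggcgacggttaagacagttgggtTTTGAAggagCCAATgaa

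Both elements stand in the stretches of Cdk1, Ect2, Kif22 and Cdc20, the CHR element alone stands in that of Mki67, and neither stands in that of Birc5. Over the 250 bases before the start and both strands, the CHR letters were present in 11 of the 35 mitosis promoters with a sequence (31.4%), in 8 of the 18 whose gene rose (44.4%), in 0 of the 9 replication promoters whose gene rose, and in 11.6% of the 9887 promoters of genes measured here. The CCAAT letters were present in 26 of 35 mitosis promoters (74.3%), in 13 of the 18 (72.2%), and in 35.8% of those of all genes measured. In the DNA replication list, 5 of 34 promoters held the CHR letters (14.7%), 20 of 34 the CCAAT letters (58.8%) and 5 of 34 an E2F-like site TTTNGCGC (14.7%, against 1.9% of genes measured). The E2F-like site was in 2 of 35 mitosis promoters (5.7%). The antioxidant response element TGACNNNGC was in 5 of 35 mitosis promoters (14.3%), in 2 of the 18 whose gene rose (11.1%), in 6 of 34 replication promoters (17.6%), in 3 of the 9 whose gene rose (33.3%), and in 11.7% of those of genes measured. These are matches of letters, not tests, and the lists were written with the class of these genes known.

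In the replication list, Rrm2, a subunit of ribonucleotide reductase, gave 188, 266 and 334 in phosgene lungs and 68.1, 106 and 84.2 in air lungs (2.69-fold higher, adjusted p = 0.000104). Tk1, thymidine kinase, gave 89.7, 99.1 and 102 in phosgene lungs and 26.4, 35.3 and 41.5 in air lungs (2.25-fold, adjusted p = 0.0135). Uhrf1, which couples DNA methylation to replication, gave 80.3, 76.2 and 74.1 in phosgene lungs and 21.9, 32.5 and 24.4 in air lungs (2.21-fold, adjusted p = 0.00216). Mcm5, a subunit of the replicative helicase, gave 117, 134 and 143 in phosgene lungs and 51.7, 67.7 and 57.5 in air lungs (1.96-fold, adjusted p = 0.0011), and no phosgene lung overlapped an air lung in any of these 4 genes. Foxm1 and E2f1, transcription factors that drive such genes, were not called, with log2 changes of 0.01 and 0.19. The mitosis count was 11 without air replicate 1, 12 without air replicate 3 or phosgene replicate 2, 13 without phosgene replicate 3, 12 in the fit of the 6 lungs by themselves and 20 against untreated lungs. The replication count was 6 without any 1 of phosgene replicates 2 and 3 and air replicates 1 and 3, 4 in the fit of the 6 lungs by themselves and 5 against untreated lungs.

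**Figure D2:**
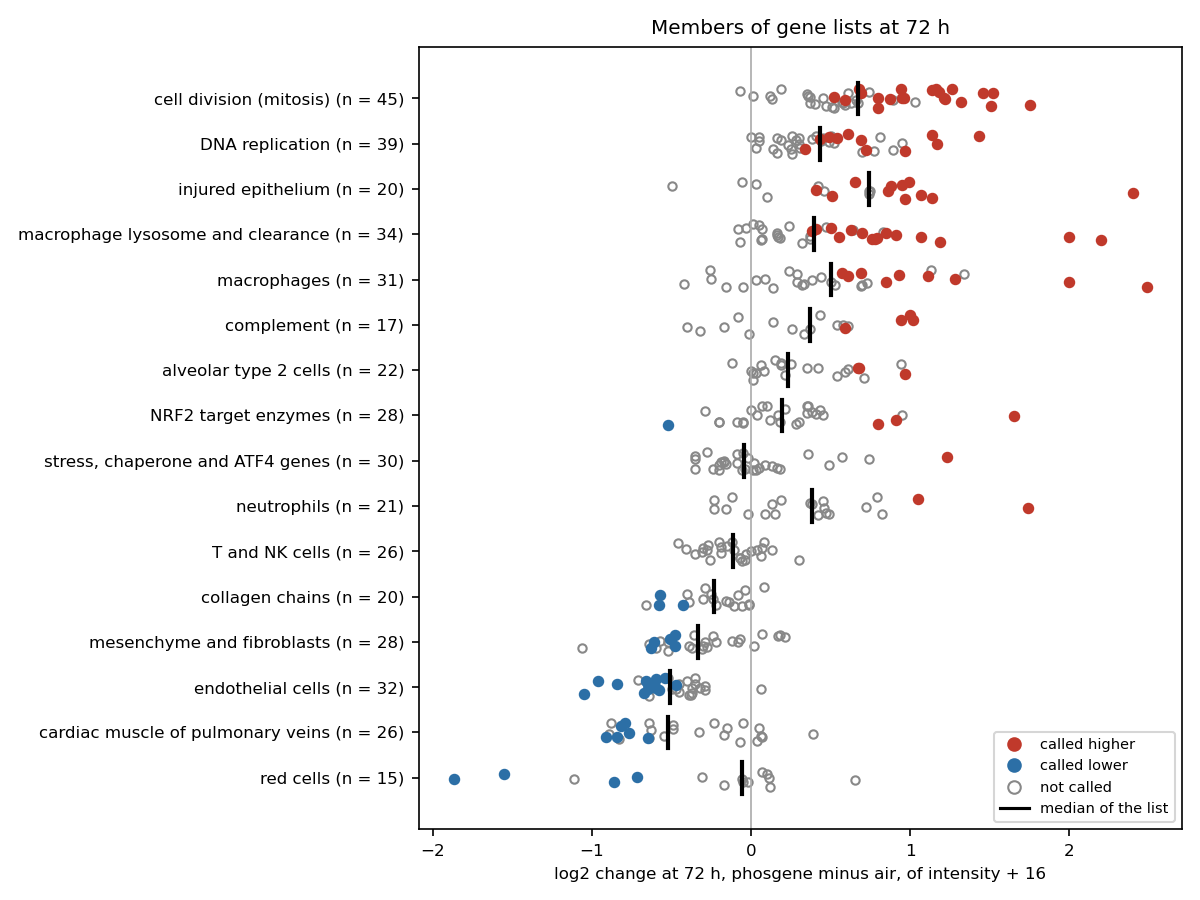
Log2 change at 72 h (phosgene minus air, of intensity plus 16) of each measured member of 16 gene lists, with 1 point for a gene, filled red where called higher, filled blue where called lower and open where not called; the vertical bar is the list's median. Mitosis, DNA replication, injured epithelium and macrophage clearance genes lie mostly right of 0, and endothelial and cardiac muscle genes mostly left of it.

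Genes of macrophages and of their lysosomes were higher. Of 34 genes of macrophage lysosome and clearance 15 rose and 0 fell (median log2 change 0.40), and 8 of the 15 calls held whichever lung was left out. The count was 8 without phosgene replicate 2, 9 without air replicate 3, 9 with hybridization day as a term and 3 in the fit of the 6 lungs by themselves. Of these 15 genes, Lgals3 and Anxa1 are counted in the injured epithelium list too, and both had also risen at 8 h. Lgals3 is counted again in the matrix list, and Gpnmb in the macrophage list. Ctsk, encoding the collagen-degrading cathepsin K, gave 176, 599.6 and 228 in phosgene lungs and 69.9, 28.5 and 62.0 in air lungs. Phosgene replicate 2 was the brightest, all 3 lay above the air lungs, and the fold was 4.59 (adjusted p = 0.00016, with a log2 change of 2.20 ± 0.36 SE). Gpnmb, a membrane glycoprotein of lipid-laden macrophages, gave 132, 397 and 272 in phosgene lungs and 44.9, 65.8 and 39.3 in air lungs (4.00-fold, adjusted p = 0.000114). Lgals3, galectin-3, gave 1071, 1303 and 1557 in phosgene lungs and 677, 563 and 593 in air lungs (2.10-fold, adjusted p = 0.00261). Cathepsins D, B, S and Z followed with log2 changes of 0.85 ± 0.15, 0.50 ± 0.09, 0.78 ± 0.21 and 0.76 ± 0.18 (SE), the aspartic and cysteine proteases that digest proteins in lysosomes. Acp5, the tartrate-resistant acid phosphatase, gave 114, 188 and 117 in phosgene lungs and 59.5, 55.7 and 39.0 in air lungs (log2 change 1.19 ± 0.30 SE). Apoc2, the cofactor of lipoprotein lipase, was almost without signal in air lungs, at 5.7, 2.8 and 2.2, against 41.7, 60.8 and 54.9 in phosgene lungs (adjusted p = 8.13e-06, with a log2 change of 1.80 ± 0.24 SE).

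Of 31 macrophage genes 9 rose and 0 fell (median 0.50), with 3 of the 9 calls held whichever lung was left out. The count was 3 without air replicate 3, 4 without either of phosgene replicates 2 and 3, 5 with hybridization day as a term and 3 in the fit of the 6 lungs by themselves. The summed intensity of the list was 11914 to 17399 in phosgene lungs and 8080 to 9674 in air lungs. In bulk lung RNA, more cells of a type and more RNA per cell cannot be told apart, and the same holds for fewer cells and less RNA. Retnla, a secreted protein of alternatively activated macrophages and of airway epithelium, gave 2646, 3658 and 3363 in phosgene lungs and 479, 930.0 and 382 in air lungs. It was 5.62-fold higher (adjusted p = 0.000551, with a log2 change of 2.49 ± 0.45 SE), with no overlap. Arg1, arginase of the same macrophages, gave 8.2, 58.8 and 59.1 in phosgene lungs and 7.8, 3.6 and 4.2 in air lungs; phosgene replicate 1 was close to the air lungs, and the call (adjusted p = 0.0195) was lost when any 1 of 4 lungs was left out. Cd68, a lysosomal membrane protein of macrophages, gave 248, 446 and 297 in phosgene lungs and 154, 142 and 126 in air lungs (2.16-fold, adjusted p = 0.000114). Markers of resident alveolar macrophages were not called, but their log2 changes were uneven. They were -0.42 for Fabp4, -0.16 for Siglecf, 0.09 for Itgax, 0.32 for Pparg, 0.50 for Plet1, 0.53 for Marco and 1.34 for Chil3. Csf1r (0.14) and Adgre1 (0.38), found on macrophages in general, were not called either. Of the 31 genes of the list, 17 were higher and 0 lower at an unadjusted p under 0.05 (limma).

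Of 17 complement genes 4 rose and 0 fell. The 3 chains of C1q, which tags dead cells and is made by macrophages, rose together: C1qa gave 339, 447 and 387 in phosgene lungs and 203, 161 and 198 in air lungs (2.0-fold, adjusted p = 0.000551), and C1qb and C1qc had log2 changes of 1.02 ± 0.19 and 0.59 ± 0.12 (SE). C3ar1, the receptor of the C3a peptide, gave 119, 152 and 130.1 in phosgene lungs and 64.6, 57.5 and 63.0 in air lungs (1.92-fold, adjusted p = 0.000129). The 4 calls stood in each leave-one-out fit, and the fit of the 6 lungs by themselves called 2 genes of the list, but against untreated lungs only that of C3ar1 did, and C1qa gave 342, 236 and 309 in untreated lungs. Of 42 chemokine and cytokine genes 2 rose and 1 fell: Ccl9 (277, 342 and 306 in phosgene lungs, 116, 112 and 82.5 in air lungs, 2.73-fold higher), Ccl6 (2.60-fold higher), both attractants made by myeloid cells, and Cxcl12 (log2 change -0.63 ± 0.15 SE), a stromal chemokine. Over all genes 2.15% rose and 1.89% fell, which is not far from the shares of this list. The fall of Cxcl12 turned to a log2 change of 0.33 with its next brightest probe set, and the call of Ccl6 was lost without phosgene replicate 2. Ccl2, Il6 and Tnf were not called (0.63, 0.33 and 0.34), whereas the monocyte receptor gene Ccr2 rose (119.5, 130.3 and 121 in phosgene lungs and 91.3, 48.5 and 53.5 in air lungs, adjusted p = 0.0236).

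Of 21 neutrophil genes 2 rose and 0 fell, both of them granule proteins that epithelium also makes. Lcn2, an iron-scavenging lipocalin, gave 722, 1696 and 1386 in phosgene lungs and 414, 409 and 247 in air lungs (3.33-fold, adjusted p = 8.13e-06), and Ltf, lactoferrin, gave 346, 350.3 and 342 in phosgene lungs and 232, 132 and 129 in air lungs (2.07-fold, adjusted p = 0.00828). S100a8 gave 344, 634 and 243 in phosgene lungs and 315, 219 and 125 in air lungs, with overlapping groups and an adjusted p of 0.504. The call of Ltf was lost without air replicate 3 and with hybridization day as a term, each of which left 1 rise in the list. The limma fit of the 6 lungs by themselves called 0 (7 at an unadjusted p under 0.05, all higher). Mpo, Elane, Ngp and Camp had log2 changes of 0.09, 0.38, -0.12 and 0.15, none of them called. The list's summed intensity was apart, at 2640 to 4412 in phosgene lungs and 1285 to 2173 in air lungs. This sum holds Lcn2 and Ltf, which are bright, so it does not stand for the other members of the list. Among the 12 largest rises were also Lrg1, Saa3 and Timp1, which encode secreted proteins and of which only Timp1 is a member of a list. Lrg1, a glycoprotein that promotes vessel growth, gave 869.6, 1675 and 1318 in phosgene lungs and 348, 225 and 250.2 in air lungs (4.41-fold, adjusted p = 8.54e-06). Saa3, a serum amyloid A made in lung, gave 136, 120.0 and 456 in phosgene lungs and 41.3, 59.9 and 40.8 in air lungs (3.41-fold, adjusted p = 0.000208). Timp1, an inhibitor of matrix proteases, gave 248, 244 and 567 in phosgene lungs and 83.1, 85.5 and 81.4 in air lungs (3.44-fold, adjusted p = 6.57e-05). Phosgene replicate 3 was far above the other phosgene lungs for Saa3 and Timp1, and both calls held without it. Among other immune lists, limma called 0 of 26 T and NK cell genes, 0 of 22 B and plasma cell genes, 0 of 22 genes of antigen presentation and dendritic cells and 0 of 30 interferon-induced genes, with 0, 0, 7 and 1 of them at an unadjusted p under 0.05. Of 15 monocyte genes 1 rose (Ccr2) and 1 fell (Ace, the angiotensin-converting enzyme, which endothelium also makes, log2 change -0.62 ± 0.17 SE), and of 19 eosinophil and mast cell genes 2 fell (Kit, -0.58 ± 0.15, and Gata2, -0.53 ± 0.12). None of these 4 calls held in every leave-one-out fit. The other 17 eosinophil and mast cell genes were not called, with a list median of -0.12. Most of that list was dim, and only 4 of its 19 genes had a mean intensity of at least 50 over the series.

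Few genes of the stress response of the first hours were called at 72 h. Of 28 targets of NRF2, the factor that switches on antioxidant enzymes, 3 rose and 1 fell at 72 h, against 22 that rose at 8 h (3.92% of all genes rose at 8 h), and the median log2 change was 0.20 at 72 h and 1.47 at 8 h. Gclc, the catalytic subunit that starts glutathione synthesis, gave 738, 835 and 853 in phosgene lungs and 525, 486 and 296 in air lungs at 72 h, with no overlap. Its log2 change was 0.91 ± 0.22 SE at 72 h (adjusted p = 0.0113) and 3.69 at 8 h. Mt2, a metallothionein, gave 539.8, 509 and 1319 in phosgene lungs and 203, 189.5 and 262 in air lungs (3.15-fold, adjusted p = 0.000337), and the aldo-keto reductase Akr1b8 gave 370.2, 426 and 490.0 in phosgene lungs and 254, 256 and 208 in air lungs (1.74-fold, adjusted p = 0.000121). These were the rises, and the glutathione transferase Gstm1 fell (log2 change -0.52 ± 0.13 SE). Heme oxygenase, Hmox1, gave 88.1, 119 and 132 in phosgene lungs and 90.1, 76.5 and 69.8 in air lungs, with overlapping groups and log2 changes of 0.43 at 72 h and 3.30 at 8 h, and sulfiredoxin, Srxn1, had 0.35 and 3.06.

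Of 30 chaperone and ATF4 genes only Atf3 rose at 72 h (83.1, 38.0 and 87.6 in phosgene lungs and 24.9, 16.7 and 16.0 in air lungs, 2.35-fold, adjusted p = 0.0208), and its call was lost when any 1 of 4 lungs was left out, whereas 20 of the 30 rose at 8 h. The heat shock gene Hspa1b had log2 changes of -0.20 at 72 h and 4.85 at 8 h. Of 27 immediate early genes 0 rose at 72 h, 1 fell (Ier5, log2 change -0.48 ± 0.13 SE) and 15 rose at 8 h. Limma called 0 of 18 p53 targets at 72 h, and likewise 0 of 18 genes of cholesterol synthesis and uptake, 0 of 12 ciliated cell genes, 0 of 12 fat cell genes and 0 of 4 genes of the X and Y chromosomes that tell males from females, with 3, 3, 2, 0 and 0 of them at an unadjusted p under 0.05. Of 16 genes of sodium, water and ion transport 1 fell, the water channel gene Aqp1 (log2 change -0.52 ± 0.14 SE), which is also endothelial. Of 26 glucocorticoid-induced genes 2 rose at 72 h, Lcn2 and Mt2, both also in other lists, and 15 at 8 h. The test of the change from 8 to 72 h called 400 genes (3.23% of all genes; 235 with a higher and 165 with a lower effect at 72 h). Of these, 126 had risen at 8 h and were not called at 72 h. In that test 17 of the 28 NRF2 targets, 16 of the 30 chaperone and ATF4 genes and 10 of the 27 immediate early genes moved down, and 0 of each moved up.

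Those that moved up in that test included 10 of the 34 genes of macrophage lysosome and clearance, 8 of 17 complement genes, 8 of 39 replication genes and 7 of 45 mitosis genes, with 0 of each list moving down. Ctsk had log2 changes of 2.20 at 72 h and -0.66 at 8 h (change 2.86, adjusted p = 0.000676), and Gpnmb 2.0 and -0.40 (change 2.40, adjusted p = 0.00124). The C1q chains C1qa, C1qb and C1qc had log2 changes of 0.01, 0.03 and -0.16 at 8 h. Other complement genes were low at 8 h: 5 of the 17 were called lower and 0 higher, with a list median of -0.27. Over all 12393 genes 598 were called lower at 8 h. At 72 h only 4 of the 17 were called higher, so moving up between the times does not mean raised at 72 h. Injured epithelium genes were raised at both times, with 11 of 20 called at 72 h and 15 at 8 h, and of the 20 genes 1 moved up and 3 down between the times. Krt8 had log2 changes of 0.99 at 72 h and 1.58 at 8 h (adjusted p of the change 0.139), and Sfn had 0.86 and 3.30 (adjusted p 2.39e-05).

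**Figure D3:**
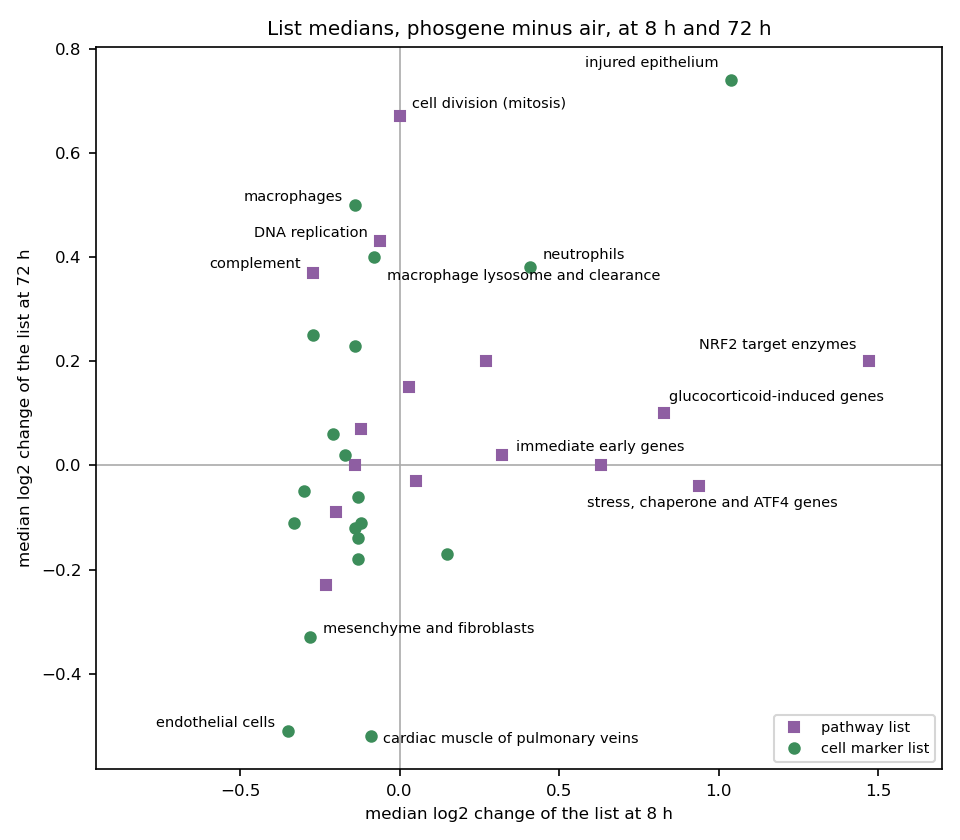
Median log2 change (phosgene minus air) of each of 34 gene lists at 8 h (horizontal axis) and at 72 h (vertical axis), with squares for pathway lists and circles for cell marker lists. NRF2 targets and chaperone genes lie far right and near 0 on the vertical axis, mitosis genes lie near 0 on the horizontal axis and at 0.67 on the vertical axis, and injured epithelium genes are high on both.

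Endothelial genes were lower as a group. Of 32 endothelial markers 12 fell and 0 rose, 31 had a log2 change below 0, and the median was -0.51. At 8 h 12 of the 32 were called lower (median -0.35), with Cdh5 (0.18) not among them, against 598 of all 12393 genes. At 48 h 12 were called lower (median -0.41), against 329 of all genes. The summed intensity of the list was 16858 to 20715 in phosgene lungs and 24761 to 29134 in air lungs. Cdh5, the cadherin of endothelial junctions, gave 565, 525 and 786 in phosgene lungs and 1059, 1198 and 1393 in air lungs. The groups were apart, and Cdh5 was 1.94-fold lower (adjusted p = 0.00197, with a log2 change of -0.96 ± 0.19 SE). Tie1, an orphan receptor of the angiopoietin system, gave 229.5, 195 and 141 in phosgene lungs and 418, 249 and 607 in air lungs (2.07-fold lower, adjusted p = 0.00704), a call lost without phosgene replicate 3 or air replicate 3. Sox7, a transcription factor of vessels, gave 377, 296 and 292 in phosgene lungs and 466, 664 and 649.8 in air lungs (1.79-fold lower, adjusted p = 0.00065). Ramp2, a partner of the adrenomedullin receptor, gave 1515, 1280.4 and 1338 in phosgene lungs and 1955, 2247 and 2428 in air lungs (1.60-fold lower, adjusted p = 0.00103).

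The angiopoietin receptor Tek, the VEGF receptor Flt1 and the adhesion molecule Icam2 also fell, with log2 changes of -0.65 ± 0.11, -0.60 ± 0.14 and -0.58 ± 0.12 (SE). Pecam1, the adhesion molecule that marks all endothelium, gave 613, 581 and 305 in phosgene lungs and 790.1, 557 and 972 in air lungs. Air replicate 2 lay within the phosgene range, and the log2 change of -0.64 ± 0.29 SE was not called (adjusted p = 0.265). Kdr (-0.40), Vwf (-0.35) and Plvap (-0.45) were not called either. Of the 12 endothelial calls of 72 h 6 held in all 6 leave-one-out fits. The count was 7 without air replicate 3, 8 without phosgene replicate 3, 6 with hybridization day as a term and 13 against untreated lungs. The limma fit of the 6 lungs by themselves called 0 of the 32 endothelial genes, with 25 lower and 0 higher at an unadjusted p under 0.05. Bmp6, a growth factor that vessels make in response to iron, gave 308, 264 and 243 in phosgene lungs and 594, 524 and 559.5 in air lungs. No phosgene lung overlapped an air lung, and Bmp6 was 2.01-fold lower (adjusted p = 2.84e-07, with a log2 change of -1.0 ± 0.11 SE).

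Among structural genes, a smaller number fell. Of 28 mesenchyme and fibroblast markers 5 fell and 0 rose (median -0.33), and of 20 collagen chains 3 fell and 0 rose, 19 of them below 0. At 8 h 5 mesenchyme markers and 1 collagen chain were called lower, with medians of -0.28 and -0.23 (598 of all 12393 genes were lower). The mesenchyme count of 72 h was 1 without phosgene replicate 2, 2 without air replicate 2 and 1 with hybridization day as a term. The collagen count of 72 h was 6 without air replicate 1. The limma fit of the 6 lungs by themselves called 0 genes in both lists, with 11 mesenchyme genes and 5 collagen chains lower at an unadjusted p under 0.05. Npnt, the matrix ligand nephronectin, gave 1829, 1858 and 2208 in phosgene lungs and 2839, 3359 and 2944 in air lungs (1.55-fold lower, adjusted p = 0.00103), and the growth factor receptor Pdgfra had a log2 change of -0.48 ± 0.13 SE. Col4a2, a chain of basement membrane collagen, gave 1194, 1167 and 1389.6 in phosgene lungs and 1501, 2122 and 2022 in air lungs (1.49-fold lower, adjusted p = 0.00159). The fibrillar chains Col1a1 and Col3a1 were not called (-0.39 and -0.29). Among 35 matrix and protease genes 3 rose (Timp1, Tnc and Lgals3) and 4 fell (Eln, Fbln5, Sparc and Timp2). None of the 4 falls held in every leave-one-out fit, and 0 were called without phosgene replicate 2 or without air replicate 3 (limma, with 9 and 7 lower at an unadjusted p under 0.05). Eln, elastin, gave 1454, 1244 and 2023 in phosgene lungs and 2057, 3360.0 and 3252 in air lungs, a narrow gap between the highest phosgene and the lowest air lung (adjusted p = 0.028), and Tnc, the tenascin of healing wounds, had a log2 change of 1.12 ± 0.27 SE. With hybridization day as a term, where air replicate 1 is the only air lung that counts, 0 collagen chains and 0 matrix genes were called lower (limma, with 5 and 4 at an unadjusted p under 0.05). Igfbp3, a binding protein of insulin-like growth factors, gave 72.6, 88.7 and 90.5 in phosgene lungs and 205, 164 and 531 in air lungs (2.80-fold lower), a call lost without air replicate 3. Among the 12 largest falls were also Cdr2l (log2 change -1.34 ± 0.28 SE) and Rbp7, a retinol-binding protein of vessels (-1.04 ± 0.27).

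Markers of the heart muscle that sheathes the pulmonary veins moved with these groups. Of 26 such genes 6 fell and 0 rose (median -0.52), and their summed intensity was 3139 to 5012 in phosgene lungs, 5762 to 6343 in air lungs and 4669 to 5940 in untreated lungs. The count was 2 without phosgene replicate 3, 3 without air replicate 1, 10 without phosgene replicate 1, 3 against untreated lungs and 1 in the fit of the 6 lungs by themselves. Myl4, an atrial myosin light chain, gave 477, 378 and 305 in phosgene lungs and 735, 645 and 708 in air lungs (1.79-fold lower, adjusted p = 0.00101), though its next brightest probe set had a log2 change of -0.04. Myl7, another atrial light chain, gave 558, 349.5 and 343 in phosgene lungs and 779.8, 718 and 839 in air lungs (1.88-fold lower, adjusted p = 0.00233). The part of this muscle in the falls of other groups was not tested. Among smooth muscle markers 2 of 12 fell, Smtn (-0.49 ± 0.11) and Mylk (-0.36 ± 0.09), and Acta2 was not called (0.11). Neither fall held in every leave-one-out fit, and limma called 0 of the list lower without air replicate 3 or with hybridization day as a term (3 and 5 of the 12 at an unadjusted p under 0.05).

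The largest fall among the called genes was in a red cell gene. Alas2, the first enzyme of heme synthesis in red cell precursors, gave 169, 162 and 187 in phosgene lungs and 654, 636 and 728 in air lungs. All phosgene lungs lay far below all air lungs, and Alas2 was 3.65-fold lower (adjusted p = 1.97e-07, with a log2 change of -1.87 ± 0.21 SE). It gave 637, 548 and 662 in untreated lungs. Of 15 red cell genes 4 fell and 0 rose. Besides Alas2 these were Bpgm (-0.86 ± 0.20), which sets the oxygen affinity of hemoglobin, Fech (-0.72 ± 0.17), the last enzyme of heme synthesis, and Hbb-b2. The count was 2 without air replicate 2 or with hybridization day as a term. It was 1 with the next brightest probe set of each gene that had several. The beta globin gene Hbb-b2 gave 19.2, 37.9 and 27.9 in phosgene lungs and 103, 146 and 93.1 in air lungs (adjusted p = 0.0122), but its next brightest probe set had a log2 change of -0.15, beta globin genes are nearly identical in sequence, and the alpha globin gene Hba-a1 was not called (0.12). The value for Hbb-b2 is therefore uncertain. Slc25a37, the mitochondrial iron importer of red cell precursors, gave 95.2, 95.1 and 137 in phosgene lungs and 196, 319 and 197 in air lungs (2.0-fold lower), a call lost without phosgene replicate 2 or air replicate 2. Gata1 and Klf1, red cell transcription factors, were not called (-0.05 and 0.65).

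**Figure D4:**
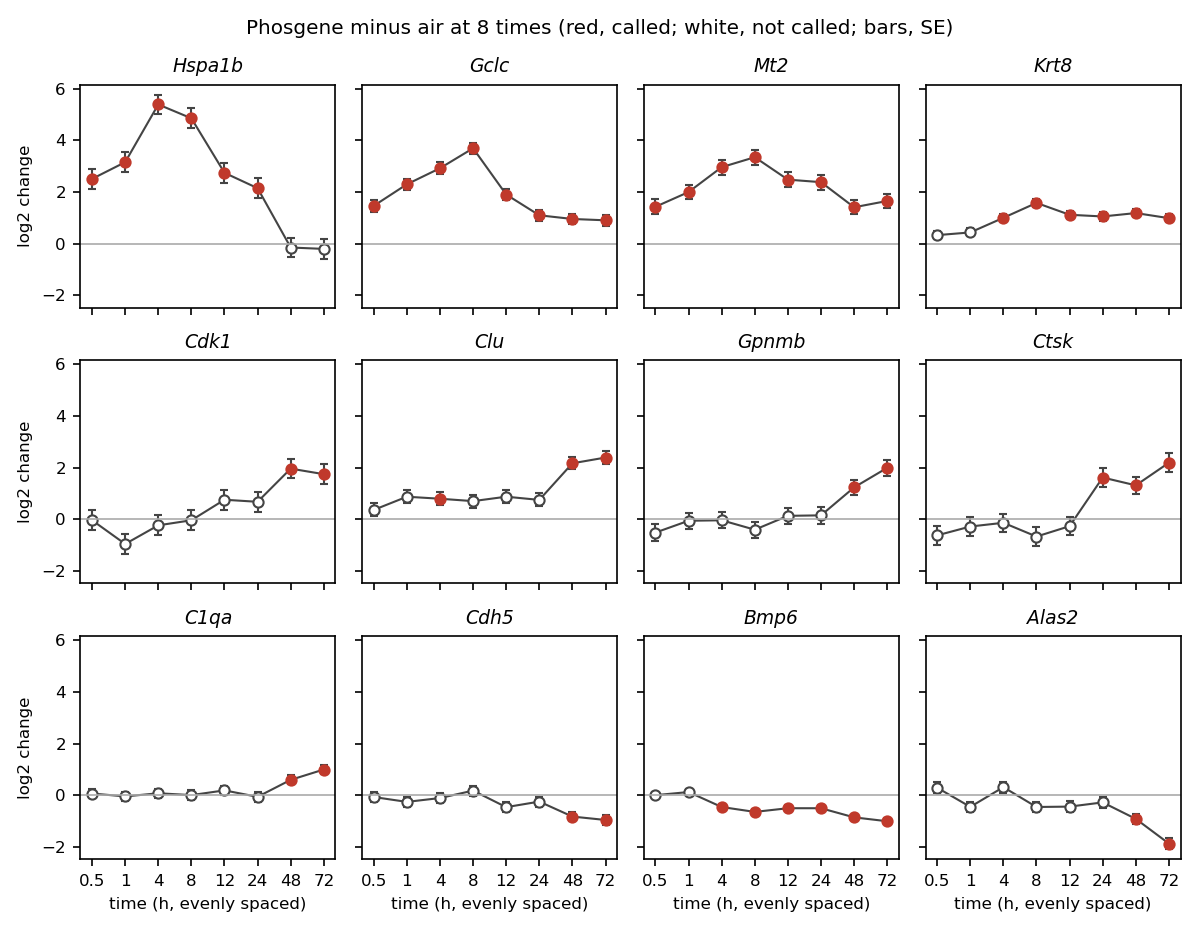
Log2 change (phosgene minus air, bars are SE) of 12 genes at the 8 times of the series, evenly spaced on the horizontal axis, with red points for called and white points for not called. Hspa1b and Gclc peak at 4 or 8 h, Cdk1, Clu, Gpnmb, Ctsk and C1qa are high at 48 and 72 h, and Cdh5, Bmp6 and Alas2 are low there. Some of these are called earlier too: Clu higher at 4 h, Ctsk higher at 24 h, and Bmp6 lower at each time from 4 h on.

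At 48 h 674 genes were called (5.44%), and 290 genes were called the same way at 48 and 72 h, which is 57.9% of the calls of 72 h and 43.0% of those of 48 h. None was called in opposite directions, and 495 of the 501 genes had the same sign at 48 h. The test of the change from 48 to 72 h called 0 genes with limma (0%), with 292 genes at an unadjusted p under 0.05, so no gene can be named as larger or smaller at 72 h than at 48 h. In 6 of the largest changes the values stood as follows, given without a test of their difference: Clu 2.40 at 72 h and 2.18 at 48 h, Cdk1 1.75 and 1.97, Gpnmb 2.0 and 1.24, Retnla 2.49 and 2.60, Alas2 -1.87 and -0.91, Bmp6 -1.0 and -0.85. Of the mitosis genes 21 rose at 72 h and 33 at 48 h.

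At 72 h alone 167 genes were called (81 higher, 86 lower), of which 161 had the same sign at 48 h. Those of largest change were H2-Ea, Hbb-b2, Rusc2, Spata5 (log2 change 1.30 ± 0.36 SE), Acp5, Ltf, Ip6k1 and Cd84. Rusc2, an adaptor of vesicle transport, gave 60.9, 64.1 and 39.8 in phosgene lungs and 164, 103 and 239.7 in air lungs (2.52-fold lower, adjusted p = 0.00163). Ip6k1, an inositol phosphate kinase, gave 115, 164 and 229 in phosgene lungs and 305, 343 and 421 in air lungs (2.06-fold lower, adjusted p = 0.0031), but its next brightest probe set had a log2 change of -0.21. Cd84, a receptor of leukocytes, gave 97.9, 83.7 and 139 in phosgene lungs and 34.8, 63.2 and 35.9 in air lungs (adjusted p = 0.0312). Rusc2 and Ip6k1 kept their calls whichever lung was left out, and Cd84 kept it in 2 of the 6 fits.

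There were 6 genes called at 72 h and in the other direction at 8 h. Uqcr11, a subunit of the respiratory chain, had log2 changes of 0.46 at 72 h and -0.46 at 8 h, S100a1 0.40 and -0.42, Gmnn, the inhibitor of replication licensing, 0.65 and -0.60, and Dctpp1, a pyrophosphatase of nucleotides, 0.37 and -0.39. Akap12, a scaffold of protein kinase A, had -0.47 and 0.70, and Ier5 -0.48 and 0.39. For each of them 4 or more of the leave-one-out fits at 72 h lost the call.

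The air lungs of 72 h differed from untreated lungs in 19 genes, 9 of them higher and 10 lower. With untreated lungs as the control, 254 of the 501 genes were called the same way and 498 kept their sign. The phosgene lungs were the same ones in both comparisons, so these signs are not independent. The clock gene Bhlhe40, a repressor of circadian transcription, was called against air and not against untreated lungs. It gave 153, 190.5 and 238 in phosgene lungs and 57.9, 81.4 and 82.0 in air lungs (2.32-fold higher, adjusted p = 0.000891), and 245, 118 and 181 in untreated lungs, so that the log2 change against these was 0.12 (adjusted p = 0.867). Over all 12393 genes, 197 were higher and 283 lower in the phosgene lungs than in untreated lungs. Of 19 clock genes 2 rose against air and 0 fell, while against untreated lungs 2 were higher and 6 lower with a median of -0.46. The summed intensity of that list was 2182 to 2608 in phosgene lungs, 2047 to 2095 in air lungs and 3795 to 4533 in untreated lungs.

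The largest rise among the called genes was that of H2-Ea, the alpha chain of the class II molecule H2-E, which some inbred strains do not make. H2-Ea gave 391, 497 and 579.7 in phosgene lungs and 62.6, 54.5 and 41.0 in air lungs (adjusted p = 0.0299, with a log2 change of 2.87 ± 0.80 SE), and its call was lost in 5 of the 6 leave-one-out fits. In the other 49 lungs of the series the values fell into separate ranges, with 40 lungs at 131.9 or less and 9 lungs at 271.1 or more, both phosgene and air lungs being among the 9. Its partner chain H2-Eb1 gave 859.7, 586 and 904 in phosgene lungs and 129, 621 and 95.8 in air lungs and was not called (adjusted p = 0.38), and neither were H2-Aa (0.42), H2-Ab1 (-0.51) and Cd74 (-0.03), which all antigen-presenting cells need. D17H6S56E-5, annotated on the same chromosome 17, gave 516, 504 and 862 in phosgene lungs and 109.7, 141 and 106 in air lungs (4.66-fold higher, adjusted p = 0.000316), and its call held whichever lung was left out. The 9 lungs of other groups in the upper range of H2-Ea gave 197.6 to 579.3 for this gene, against a median of 139.1 over the 49 lungs. In the lower range of H2-Ea, phosgene replicate 3 of 48 h gave 731.5 and phosgene replicate 3 of 1 h gave 257.6. Whether the rise of D17H6S56E-5 at 72 h goes with the ranges of H2-Ea was not tested.

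**Figure D5:**
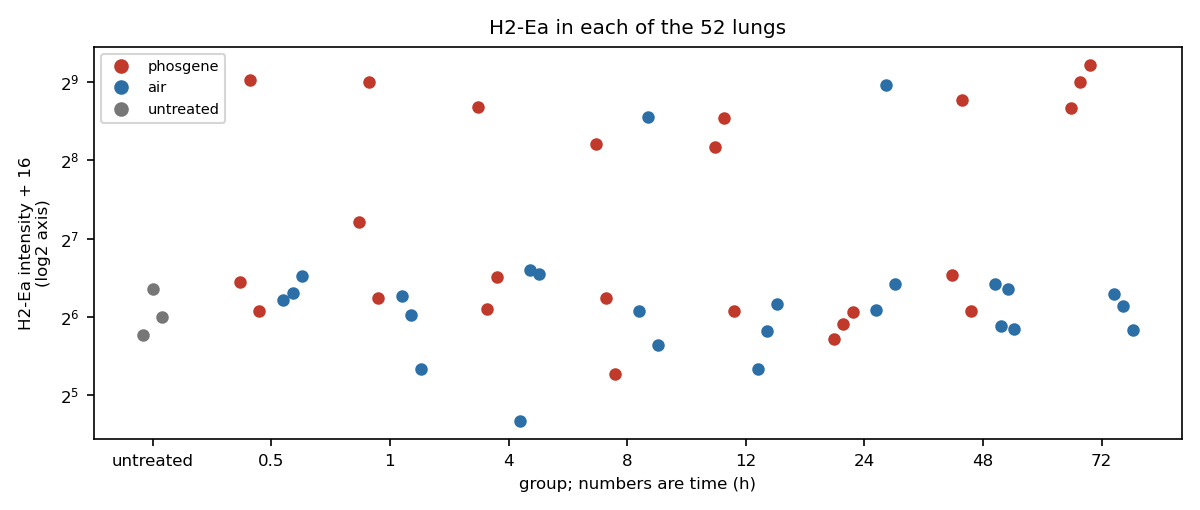
Intensity of H2-Ea plus 16 (log2 axis) in each of the 52 lungs, by group, with untreated lungs first and then phosgene (red) left of air (blue) at each of 8 times. The 3 phosgene lungs of 72 h are in the upper range with 9 lungs of other groups, and the air lungs of 72 h are in the lower range.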

How the data were processed

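The deposited values are linear signal intensities, 1 for each probe set and chip, scaled per chip by the authors: the mean after trimming 2% at each end was 150.03 to 150.04 on all 104 chips, a level found in the values themselves. The software behind them is not given in the sources used here. Settings files deposited by the authors (unit other) served only for hybridization days and lots, which are known for 97 and 95 chips. The number of arrays limits the precision, since intensities carry no counted depth.

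To each intensity 16 was added before log2, and the 2 chips of a lung were averaged. Of 22690 probe sets, 64 controls, 691 with several gene symbols and 1555 with none were left out, and the brightest of each gene was kept (12393 genes; names from GEO's platform annotation). All 52 lungs of the 17 groups were fitted with limma 3.58.1 in R 4.3.3, with 1 mean per group and a variance trend (40.4 degrees of freedom), as 2-sided contrasts adjusted by Benjamini-Hochberg over 12393 genes.

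Named genes were the 12 largest rises and 12 largest falls with lungs apart, up to 4 called members of each list, the lung markers, up to 8 genes called at 72 h alone and up to 6 called oppositely at 4 or 8 h. Other members were named after their values were seen. The comparison and the 35 gene lists were chosen with earlier results of these data known. The letters A and B of the 2 chips are shared by all groups but name chips of the same lung, and the letter in the title differs from that in the description for some chips. Promoter sequences are from RefSeq, GRCm38.p6, with 35 of 45 mitosis and 34 of 39 replication genes matched. Alternatives changed the offset, normalization, filter, probe set, chip, weights, control, batch term or lungs. Figures were drawn with matplotlib 3.10.9 in Python 3.11.15.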

Additional observations from a re-analysis of the deposited data

Results flagged for a closer look

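The effect of phosgene differed between 8 and 72 h for 400 genes in limma's test of the difference itself (Benjamini-Hochberg over all genes), and this held for 10 of the 24 genes of largest change at 72 h. As the log2 change at 72 h minus that at 8 h, Ctsk differed by 2.86, Gpnmb by 2.40, D17H6S56E-5 by 2.07, Apoc2 by 1.81, Clu by 1.69 and Saa3 by 1.60, all larger at 72 h. Rusc2 differed by -1.59, Alas2 by -1.42, Ip6k1 by -1.16 and Slc25a37 by -1.16, all lower at 72 h. For D17H6S56E-5 the lungs of 8 h were uneven, at 319.8, 123.5 and 134.9 in phosgene lungs and 141.5, 197.6 and 139.1 in air lungs. Groups of 3 lungs are too small for a test of single outlying lungs.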

How the results depend on the processing

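The counts below are genes called at 72 h (501), those higher (267), those lower (234), and genes whose effect changed from 8 to 72 h (400). Leaving out single lungs gave 227 to 527 genes, 130 to 294 higher, 97 to 233 lower and 258 to 373 changed. Chip A alone gave 268, 159, 109 and 229, and chip B alone 157 changed. The 6 lungs of 72 h alone gave 65, 53 and 12. Air lungs of 24, 48 and 72 h together as the control gave 1082, 542 and 540. Air replicate 1 alone, chosen after seeing the data, gave 46, 37, 9 and 82. Fitting the chips singly, with a random effect of lung and the chip letter as a replicate block, gave 904, 448, 456 and 838, at 1 correlation of 0.283 shared by all genes. The letters do not pair lungs, so these extra calls are not added support. Hybridization day as a term gave 258, 145 and 113, and chip lot 230, 132 and 98, each with air replicate 1 as the only air lung that counts at 72 h. The next brightest probe set gave 135 lower, array weights 663 changed, and chips centred on their medians 262 changed. Offsets of 1 and 64, quantile normalization and a floor on mean intensity kept each of these counts within 1.5 times. The test from 48 to 72 h called 0 genes in every setting tried. Among named genes Cxcl12 alone reversed, to 0.33 with its next brightest probe set. Where they had a value, all 501 called genes kept their sign in each setting but that one (477) and untreated control lungs (498). Only 4956 of the 12393 genes had several probe sets. Genes with 1 probe set kept it in the setting of the next brightest, so the 477 include signs that could not change. Where lungs were left out, and with array weights, the sign was fixed in advance for the 486 called genes whose groups did not overlap. The fit of the 6 lungs alone has the same log2 changes as the main fit, so all 501 signs were fixed there. Which of the days, lots and lungs moved the counts was not tested.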

Other observations

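Further rises at 72 h lay outside the lists and were picked after their values were seen. Cxcl17, a chemokine of mucosal epithelium, gave 517, 604 and 648 in phosgene lungs and 263, 209.9 and 195 in air lungs (2.55-fold higher, limma adjusted p = 1.78e-05). S100a4, a calcium-binding protein of motile cells, gave 282, 233 and 263 in phosgene lungs and 146, 80.4 and 104 in air lungs (2.22-fold, adjusted p = 0.000723). Wfdc21, a small secreted protein, gave 192, 382 and 276 in phosgene lungs and 62.3, 83.9 and 71.0 in air lungs (3.29-fold, adjusted p = 0.000843). Slpi, an inhibitor of neutrophil elastase, gave 626, 793 and 588 in phosgene lungs and 414, 272 and 209.8 in air lungs (adjusted p = 0.00873), and Ch25h, which makes an oxysterol signal, gave 103, 136 and 208 in phosgene lungs and 43.0, 64.2 and 44.9 in air lungs (adjusted p = 0.00419). The groups did not overlap in any of these 5 genes, and the calls of Cxcl17, S100a4 and Wfdc21 held whichever lung was left out. Among the falls, Hlx, a transcription factor of mesenchyme, gave 77.6, 84.9 and 31.9 in phosgene lungs and 162, 123 and 189.6 in air lungs (2.24-fold lower, adjusted p = 0.000316), and Acaa1b, a peroxisomal thiolase, gave 48.8, 42.6 and 53.7 in phosgene lungs and 133, 132 and 91.8 in air lungs (2.08-fold lower, adjusted p = 0.000205). Both of these calls held whichever lung was left out.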
